A study of Mus musculus with 4 samples.

Results

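Barcodes that carried *Barx1* together with *Foxf1* or *Osr1*, the transcription factor genes that mark the mesenchyme around the embryonic foregut, made up 759 of the 30415 barcodes that passed quality filters (2.5%) in single-cell RNA libraries of mouse hearts at E10.5. Of these, 638 (84.1%) came from 2 of the 4 libraries. A barcode is the tag of 1 droplet, taken here as 1 cell, and a UMI is a molecular tag that counts 1 captured RNA molecule. Members had at least 1 UMI of *Barx1*, at least 1 UMI of *Foxf1* and *Osr1* summed, no *Epcam* UMI, and, per 10000 UMIs, *Tnnt2* below 15, *Hbb-y* below 500 and *Pecam1*, *Cdh5* and *Ecscr* summed below 2. Those limits keep out epithelium, cardiomyocytes, red cells and endothelium. Since measured RNA chose the members and they were selected on *Barx1*, *Foxf1* and *Osr1*, the values of these genes are a description.

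Both control libraries (5 and 7) were labelled Tie2flfl and both *Tie2-cko* libraries (6 and 8) Nfatcre-Tie2flfl. The floxed *Tie2* allele is therefore shared by controls and mutants, and the *Nfatc1* Cre removes *Tie2* (gene symbol *Tek*) in the endocardium. According to the methods, the whole cardiogenic region was dissected from hearts of somite-matched littermates kept on a mixed strain background. The labels do not tie libraries to separate animals, so any p-value over libraries measures only the spread between these 4. The files held 18488, 8877, 11172 and 11899 barcodes and 259775540, 222270938, 169361996 and 210062861 UMIs for libraries 5, 6, 7 and 8. Filters on genes (at least 1500) and mitochondrial UMIs (at most 10%) kept 9019, 4468, 7965 and 8963 barcodes.

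Foregut mesenchyme derives from splanchnic mesoderm and lies next to the heart at this stage, where hedgehog ligands from the gut epithelium act on it and keep *Foxf1* on. *Barx1* is a homeobox gene best known in stomach mesenchyme, where it lowers Wnt signalling through secreted Sfrp proteins. *Osr1* is a zinc finger gene of lateral and intermediate mesoderm, *Hoxa5* acts in foregut and lung mesenchyme, *Rspo1* encodes a secreted amplifier of Wnt signalling, and *Cxcl13* encodes a chemokine. Mesenchyme of the respiratory tract lies beside that of the stomach and oesophagus and is known for *Tbx4*, *Tbx5* and *Wnt2*. *Barx1* is also used in the neural crest mesenchyme of the pharyngeal arches.

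The sequences just before the starts of 3 genes on which the results turn are shown: *Barx1*, which chose the members, and *Hoxa7* and *Wnt2*, which differed most with the *Barx1* level. They are RefSeq promoter sequences of build GRCm38.p6, cut to the part upstream of any exon annotated at that start, and capitals mark GC boxes (GGGCGG, or CCGCCC for the other strand, overlaps included). *Barx1* (ENSMUSG00000021381) lies on the plus strand and its sequence at chr13:48662786-48662997 ends at the base before the gene. *Wnt2* (ENSMUSG00000010797) lies on the minus strand with its sequence at chr6:18030586-18030695, also next to the gene. *Hoxa7* (ENSMUSG00000038236) is on the minus strand, and its sequence at chr6:52218712-52218823 lies before the RefSeq start but inside the longer gene model, which spans 52214491 to 52221854.
Barx1: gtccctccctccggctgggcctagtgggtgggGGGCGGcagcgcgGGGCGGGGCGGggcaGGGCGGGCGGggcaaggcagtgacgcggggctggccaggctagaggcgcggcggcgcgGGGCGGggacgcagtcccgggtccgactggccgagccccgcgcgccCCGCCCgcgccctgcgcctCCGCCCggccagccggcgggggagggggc
Hoxa7: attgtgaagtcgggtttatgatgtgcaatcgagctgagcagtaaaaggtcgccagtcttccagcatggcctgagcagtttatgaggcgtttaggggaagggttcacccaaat
Wnt2: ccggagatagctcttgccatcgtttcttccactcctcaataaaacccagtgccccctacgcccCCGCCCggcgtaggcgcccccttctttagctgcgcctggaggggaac

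The *Barx1* sequence of 212 bases held 8 GC boxes and was 85.4% G or C, against a median of 51.9% over all 32817 promoters at that length, of which 27.2% hold at least 1 GC box. The *Wnt2* sequence (110 bases, 62.7% G or C) held 1 GC box, which 11.6% of promoters hold at that length. The *Hoxa7* sequence (112 bases, 49.1% G or C) held none, and 11.8% hold one. A forkhead core (TGTTTAC), a GLI core (GACCACC), a T-box site (AGGTGTGA) and a TATA box (TATAAA) were searched on both strands and none of the letters occurred in the 3 windows. At the length of the *Barx1* window these motifs occur in 2.72%, 2.08%, 0.972% and 9.64% of all promoters. A match is a string of letters and not a shown binding site.

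Members were unevenly spread over the libraries. Control library 5 held 311 (3.45% of its kept barcodes, exact 95% interval 3.08 to 3.85) and *Tie2-cko* library 6 held 327 (7.32%, 6.57 to 8.12). Control library 7 held 31 (0.389%, 0.265 to 0.552) and *Tie2-cko* library 8 held 90 (1.00%, 0.808 to 1.23). Intervals here and below cover counting error only. The genotypes overlapped, with 1 high and 1 low library each. The mean share was 4.16% in *Tie2-cko* and 1.92% in controls, a difference of 2.24 percentage points (exact permutation test over libraries, two-sided p = 0.667, where the smallest possible p is 0.333). Without library 6 the difference was -0.915 points.

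**Figure D1:**
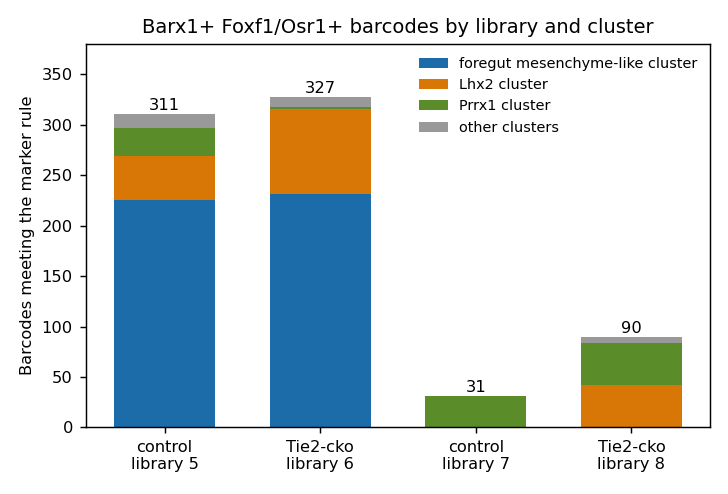
Number of barcodes meeting the marker rule (vertical axis) in each library (horizontal axis), with colours for the expression cluster that held them. Libraries 5 and 6 held 311 and 327, mostly in the foregut mesenchyme-like cluster, and libraries 7 and 8 held 31 and 90, none of them in that cluster.

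The members of libraries 7 and 8 also met the rule by a smaller margin. The median *Barx1* count of a member was 11 UMIs in library 5, 12 in library 6, 2 in library 7 and 4 in library 8. Both *Foxf1* and *Osr1* were seen in 162 members of library 5 (52.1%) and 206 of library 6 (63.0%), but in 2 of library 7 (6.45%) and 5 of library 8 (5.56%). Over the 4 libraries 375 members had both, 299 had *Foxf1* alone and 85 had *Osr1* alone. A single *Barx1* UMI admitted 42, 61, 12 and 26 members, 18.6% of all. Just outside the rule lay 272, 146, 115 and 179 barcodes with *Barx1* and neither of the other genes, and 451, 374, 131 and 190 with *Foxf1* or *Osr1* and no *Barx1*. Median depth of members was 13547, 22867, 12814 and 15756.5 UMIs, and each was below the median of all kept barcodes of its library (22023, 36302.5, 16625 and 18758).

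Clustering all kept barcodes without the rule and marker genes gave 25 clusters, and 3 of them held all but 29 of the 759 members. The largest group, 456 members (60.1%), was 225 from library 5 and 231 from library 6. It sat in a cluster of 1157 barcodes of which 580, 572, 4 and 1 came from libraries 5, 6, 7 and 8. That cluster led with *Cxcl13*, *Barx1*, *Foxf1*, *Osr1*, *Ifitm1* and *Hoxa5*, and with *Rspo1* further down, so it is called foregut mesenchyme-like here. No member in it came from library 7 or 8. With 3 barcodes taken as the limit for a count of 0, not the exact interval, shares of up to 0.0377% and 0.0335% of kept barcodes remain possible. The absence depends on the resolution for library 8. A coarser clustering gave 1 cluster of 1879 barcodes that held 620 members, 268, 310, 0 and 42 by library. A second cluster of 1069 barcodes, led by *Lhx2*, *Hs3st3b1*, *Lum* and *Ptn*, held 171 members (22.5%), 44 in library 5, 85 in library 6 and 42 in library 8. Another of 1745 barcodes, led by *Prrx1*, *Crabp1*, *Rgs5* and *Col9a1*, held 103 members (13.6%), 28, 2, 31 and 42 by library. The remaining 29 lay in 11 clusters. That name rests partly on *Barx1*, *Foxf1* and *Osr1*, which chose the members, and so does not check the label. Of 12 stomach and gut genes, 6 reached 0.1 UMIs per 10000 in its members in both libraries, and *Barx1* itself made up 13.9 of a summed 18.0 in library 5 and 12.9 of 17.8 in library 6. *Nkx2-3*, a homeobox gene of gut mesenchyme, was at 0 in library 5 and 0.013 in library 6. The Lhx2 and Prrx1 clusters, where 5 and 7 to 9 of the 12 reached 0.1, are called by their leading genes and given no cell type. All 31 members of library 7 were in the Prrx1 cluster.

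Members of the foregut mesenchyme-like cluster had the highest *Barx1* level, 13.9 and 12.9 UMIs per 10000 in libraries 5 and 6 (mean 13.4 ± 0.674, SD, n = 2 libraries). In the Lhx2 cluster it was 5.87, 3.85 and 5.75 in libraries 5, 6 and 8, and in the Prrx1 cluster 2.60, 3.02 and 2.72 in libraries 5, 7 and 8. The 3 ranges did not overlap. *Foxf1* stood at 2.21 and 2.61 in the foregut group, 1.17 to 1.48 in the Lhx2 cluster and 0.799 to 0.971 in the Prrx1 cluster. *Osr1* was at 2.63 and 3.25 in the foregut group, at 0.358, 0.651 and 0 in the Lhx2 cluster of libraries 5, 6 and 8, and at 0.174, 0.303 and 0.331 in the Prrx1 cluster of libraries 5, 7 and 8. It set the foregut group above both others, whose ranges overlapped.

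Among the 3 groups of members, the levels of 3 markers that the rule did not use were also highest in the foregut group. *Hoxa5* was at 1.21 and 1.49 UMIs per 10000 in the foregut group, 0.882, 0.563 and 0.381 in the Lhx2 cluster, and at most 0.198 in the Prrx1 cluster. *Rspo1* was at 0.866 and 0.983, against 0.267 to 0.749 and at most 0.0463. *Cxcl13* was at 0.746 and 0.890, against at most 0.171 and 0.0231. Barcodes with *Foxf1* or *Osr1* and no *Barx1* had more *Cxcl13*, 2.94 and 2.88 in libraries 5 and 6 (0 in libraries 7 and 8). The level of *Cxcl13* was thus not particular to the foregut group. Over all barcodes of the foregut mesenchyme-like cluster, with or without *Barx1*, *Hoxa5* averaged 1.30 and *Rspo1* 1.11. Within that cluster their levels were thus not particular to the members either. By share of thinned barcodes with a UMI, *Rspo1* in Lhx2 cluster members of library 6 (45.1%) lay within the range of the foregut group (44.5% and 49.7%). These genes were left out of the clustering, but they vary with genes that entered it, so the differences are descriptions.

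With every barcode thinned to 10000 UMIs, 82.9% and 87.7% of foregut members of libraries 5 and 6 had a *Foxf1* UMI, 56.7% and 67.7% had *Hoxa5*, 44.5% and 49.7% had *Rspo1*, and 20.1% and 27.2% had *Cxcl13* (164 and 195 barcodes deep enough). In cardiomyocyte-like barcodes of the same libraries (3296 and 1263), which should lack these genes, the shares were 1.67% and 3.09%, 1.15% and 1.03%, 1.88% and 1.90%, and 1.00% and 0.871%. *Foxf1* was also used to choose the members, so its share was largely set by the rule. Of the other genes that chose them, 96.3% and 92.8% of foregut members kept a *Barx1* UMI and 72% and 74.4% an *Osr1* UMI after thinning. The cardiomyocyte-like shares were 5.58% and 5.78% for *Barx1* (12% and 15.3% before thinning) and 5.34% and 4.43% for *Osr1*, above those of the genes before. In libraries 7 and 8 they were 3.46% and 3.73% for *Barx1* (4.69% and 5.99% before thinning) and 2.60% and 3.71% for *Osr1*. Whether these shares come from free RNA or from expression in those barcodes was not tested. Members admitted on a single *Barx1* UMI stand nearest to them. Before thinning, *Cxcl13* was seen in 23.1% and 33.3% of foregut members. Median depths before thinning were 12476 and 21204 UMIs in the foregut members and 29114 and 50371.5 in the cardiomyocyte-like barcodes.

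The 3 groups of members also differed from each other in further genes. *Isl1*, a LIM homeobox gene of the second heart field and of foregut mesoderm, was at 1.67 and 1.77 UMIs per 10000 in the foregut group, and the other groups of members ranged from 0.0328 to 0.813. Second heart field-like barcodes had 1.36 to 2.48. They were chosen for *Isl1* with *Fgf10* or *Tbx1* and no *Barx1*, so their level cannot show whether that of the foregut group was particular. Barcodes with *Foxf1* or *Osr1* and no *Barx1*, not chosen on *Isl1*, had at most 0.823 in any library. *Ccnd2*, which encodes cyclin D2, was at 12 and 11.5, against 2.37 to 4.81 elsewhere. *Ifitm1*, which encodes an interferon-induced membrane protein, was at 5.41 and 4.98, against at most 1.26. *Aldh1a2*, the main enzyme of retinoic acid synthesis in mesoderm, was at 0.657 and 0.802, against at most 0.187. *Gdnf*, a neurotrophic factor gene of gut mesenchyme that guides enteric neurons, was at 0.283 and 0.234, and at most 0.00814 in the other groups.

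The Lhx2 cluster's members carried some of the genes listed for mesothelium, septum transversum and epicardium, 6, 9 and 6 of 11 at 0.1 or more in libraries 5, 6 and 8. *Lhx2* was at 0.865, 1.07 and 1.12 in libraries 5, 6 and 8, against at most 0.011 in the foregut group. *Wt1* was at 0.508, 0.839 and 1.05, *Upk3b*, a uroplakin gene of mesothelium, at 1.03, 1.79 and 1.3, and *Gata6* at 2.53, 3.69 and 2.7. *Cdkn1c*, which encodes a brake on cyclin-dependent kinases, was at 41.0, 28.1 and 44.9, against 7.73 and 7.74 in the foregut group. The Prrx1 cluster's members carried genes of pharyngeal arch and limb-type mesenchyme, with *Prrx1* at 2.08, 2.90 and 3.59 and *Dlx5* at 0.629, 0.506 and 0.684, where *Dlx5* was 0 in both foregut libraries. *Twist1* was at 2.59, 2.27 and 1.73, against 0.329 and 0.411. The list of 17 pharyngeal arch and crest genes summed to 0.770 and 1.01 in the foregut group and to 8.74, 10.2 and 11.6 in the Prrx1 cluster. The 11 mesothelial genes summed to 0.967 and 1.2 in the foregut group and to 3.99, 5.92 and 5.95 in the Lhx2 cluster. *Aldh1a2*, also on that list, went the other way and was higher in the foregut group (above), *Msln* was at 0 in the Lhx2 cluster of libraries 5 and 8, and *Aldh1a2* and *Dkk2* were at 0 in that of library 8.

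**Figure D2:**
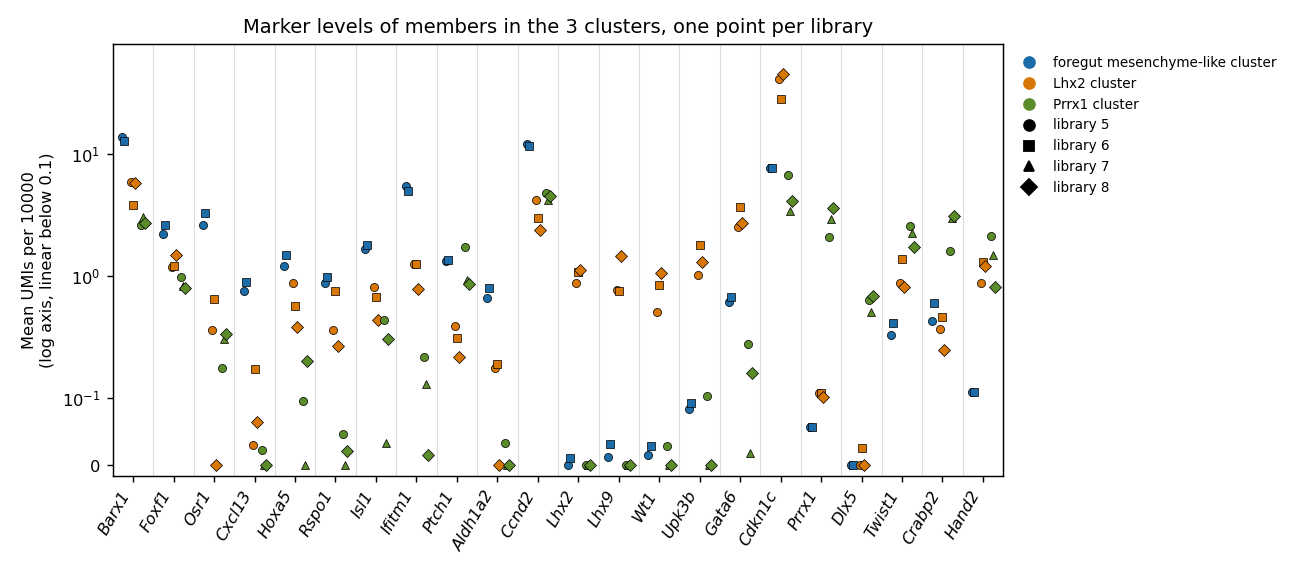
Mean UMIs per 10000 (vertical axis, logarithmic above 0.1 and linear below) of 22 genes in members of the 3 clusters, with 1 point per library that held at least 20 members. Genes from *Barx1* to *Ccnd2* were highest in the foregut mesenchyme-like cluster apart from *Ptch1* in library 5, *Lhx2* to *Cdkn1c* were highest in the Lhx2 cluster, and *Prrx1*, *Dlx5*, *Twist1* and *Crabp2* in the Prrx1 cluster.

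The rule limited *Epcam*, *Tnnt2*, *Hbb-y* and the sum of *Pecam1*, *Cdh5* and *Ecscr*, so the levels of epithelial, cardiomyocyte, red cell and endothelial genes in the foregut group describe selected barcodes. *Epcam*, which the rule required to be 0, and *Cdh1*, which it did not use, were both at 0 in the 2 libraries. *Krt18* was the highest of the 11 epithelial genes, at 0.912 and 0.734. The 9 endothelial genes summed to 0.460 and 0.404 UMIs per 10000, with *Egfl7* highest, and *Tek*, the gene deleted in the mutants, was at 0.00963 and 0.00519, which is 3 UMIs in each library. *Sox10*, a marker of crest-derived neural cells, was at 0 in library 5 and at 0.00163 in library 6, and *Ret* was at 0 in both. The 10 cardiomyocyte genes summed to 22.1 and 10.4, with *Myl7* highest, and the 5 red cell genes to 76.1 and 13.0, with *Hbb-y* highest at 36.9 and 6.28. In the Lhx2 cluster's members the red cell genes summed to 68.1 and 12.4, so their RNA was higher in library 5 in both groups.

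The Hox genes, which record position along the body axis, were described as a list of 39. Of these, 15 reached 0.1 UMIs per 10000 in both foregut libraries, from paralogue groups 1 to 8. The number was 10, 10 and 8 in the Lhx2 cluster of libraries 5, 6 and 8 and 5, 7 and 10 in the Prrx1 cluster of libraries 5, 7 and 8. In the foregut group the 39 summed to 6.59 and 8.22. The sums were 4.75, 4.65 and 3.19 in the Lhx2 cluster and 1.84, 2.52 and 3.84 in the Prrx1 cluster. *Hoxa7* was at 0.712 and 0.808 in the foregut group and at most 0.0685 elsewhere. *Hoxb8* was at 0.282 and 0.3, against at most 0.0188. *Hoxb6* and *Hoxb7* had the same pattern, with *Hoxb6* at 0.204 and 0.24 and *Hoxb7* at 0.186 and 0.164, and neither passed 0.0464 in the other groups. *Hoxa4* and *Hoxb4*, in contrast, overlapped between the foregut group and the Lhx2 cluster. *Hoxd4* went the other way, at 0.670 and 0.991 in the Prrx1 cluster of libraries 7 and 8, at 0 in that cluster of library 5, and at 0.0111 and 0.0203 in the foregut group. Members of the Prrx1 cluster thus differed between libraries in *Hoxd4* although all met the same rule.

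**Figure D3:**
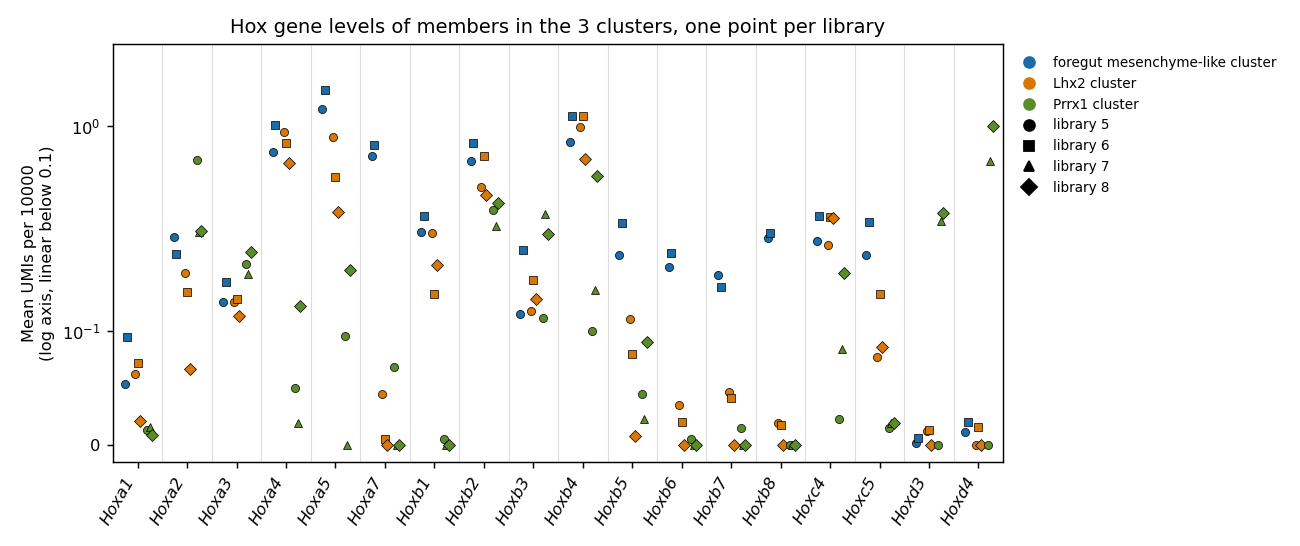
Mean UMIs per 10000 (vertical axis, logarithmic above 0.1 and linear below) of 18 Hox genes in members of the 3 clusters, with 1 point per library that held at least 20 members. *Hoxa7*, *Hoxb6*, *Hoxb7* and *Hoxb8* stood above 0.1 in the foregut mesenchyme-like cluster alone, and *Hoxd3* and *Hoxd4* in the Prrx1 cluster of libraries 7 and 8 alone.

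Only 56.2% of the 1157 barcodes in the foregut mesenchyme-like cluster had a *Barx1* UMI. After thinning to 10000 UMIs, the cluster's barcodes were classed by *Barx1* as zero (168 in library 5, 223 in library 6), low with 1 to 4 UMIs (50 and 56) or high with at least 5 (187 and 203). Members were 6 and 14 of the zero class, 34 and 48 of the low class and 124 and 133 of the high class. Median depth before thinning was 14894.5 and 21933 UMIs in the zero class and 15494 and 25889 in the high class. Of 4680 genes that reached 0.3 UMIs in a class, 38 (0.812%) were past 2-fold higher in the high class in both libraries and 78 (1.67%) past 2-fold lower. The median gene differed by -0.01 on the log2 scale. The classes were set after the values were seen and share 1 cluster, so no test was made.

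*Hoxa7* had the largest ratio of high to zero, with 0.0357 UMIs in the zero class (95% interval 0.0131 to 0.0777), 0.4 in the low and 1.29 in the high class (1.13 to 1.46) of library 5. In library 6 the same classes had 0.0179 (0.00489 to 0.0459), 0.304 and 1.01 (0.876 to 1.16). The level was higher at each step in both libraries. As *Hoxa7* was picked for its ratio between these classes, this is a description, and the intervals show counting error only. *Hoxb8* went from 0.0357 to 0.406 and from 0.0448 to 0.453. *Six2*, a homeobox gene known from the pyloric end of the stomach and from kidney progenitors, had no UMI in the zero class of either library and 0.289 and 0.458 UMIs per barcode in the high class. *Isl1* went from 0.482 to 1.88 and from 0.561 to 2.32, and *Ccnd2* from 4.98 to 14.6 and from 4.64 to 14.5. *Gdnf*, *Pitx1*, *Pdgfra* and *Rspo3* were also past 2-fold higher in both libraries.

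Part of the lung and trachea list was lower in the *Barx1*-high class. *Wnt2*, a Wnt ligand known from early lung mesenchyme, stood at 1.29 UMIs in the zero class (1.12 to 1.47), 0.3 in the low and 0.0214 in the high class (0.00583 to 0.0548) of library 5. In library 6 it stood at 1.19 (1.05 to 1.34), 0.357 and 0.0197 (0.00537 to 0.0505). With 0.02 added before division these are 31.5-fold and 30.4-fold, each resting on 4 UMIs in the high class. *Tbx5* went from 1.30 to 0.0267 and from 1.56 to 0.0493, and *Tbx2* from 0.476 to 0 and from 0.543 to 0.0197. In all, 4 of the 7 genes of the lung and trachea list that reached the level were past 2-fold lower (*Tbx5*, *Tbx2*, *Tbx3* and *Wnt2*), none was past 2-fold higher, and the median of the 7 was -2.10 on the log2 scale, against 1.67% lower, 0.812% higher and a median of -0.01 over all genes. *Wnt2* and *Tbx5* are not particular to lung and trachea here. After thinning, 19.8% and 18.7% of cardiomyocyte-like barcodes of libraries 5 and 6 had a *Wnt2* UMI and 27.2% and 29.3% a *Tbx5* UMI, and mesothelial-like barcodes had a mean *Wnt2* level of 2.23 and 2.39 UMIs per 10000, above the zero class. *Foxf1* and *Hoxa5*, which the list also holds, stayed within 2-fold. *Tbx4* did not reach the level, with 37 and 58 UMIs in the zero classes and 1 and 0 in the high classes. The stomach and gut list was split, with *Isl1* and *Six2* higher and *Sfrp2* and *Zfp503* lower among 5 genes. Some genes of other cell types were lower too. *Kdr*, the 1 endothelial gene that reached the level, was at -3.69 on the log2 scale. Of 4 cushion genes *Snai1* and *Vcan* were lower and *Pdgfra* higher, and of 2 pharyngeal arch and crest genes *Prrx2* was lower. Neither the zero nor the high class was selected by the rule's endothelial limit. Members, which had met it, were 6 of 168 and 14 of 223 in the zero class and 124 of 187 and 133 of 203 in the high class. The part of other cell types in either class was not tested.

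*Cxcl13*, the gene that led the cluster, was mostly outside the *Barx1*-high barcodes. It went from 6.47 through 1.94 to 0.326 UMIs in library 5 and from 4.91 through 1.86 to 0.394 in library 6, with 68.5% and 68.6% of zero-class barcodes holding a UMI against 16.0% and 20.7% of the high class. Levels of *Foxf1*, *Osr1* and *Hoxa5* were within 1.5-fold between zero and high classes. *Foxf1* was at 1.85 and 2.25 in library 5 and at 2.42 and 2.77 in library 6, *Osr1* at 1.77 and 2.44 and at 2.73 and 2.95, and *Hoxa5* at 1.22 and 1.26 and at 1.24 and 1.37. *Rspo1* was 1.96-fold and 1.59-fold higher in the zero class.

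Among signalling pathways, the Wnt list had 1 gene higher (*Rspo3*, a secreted amplifier) and 5 lower in the *Barx1*-high class among 11 (*Wnt2*, *Wnt4*, the inhibitor gene *Sfrp2*, the transcription factor gene *Lef1*, and *Nkd1*, a feedback inhibitor). Of 8 genes of the BMP list, *Bmp4*, its pseudoreceptor gene *Bambi* and the target *Id3* were lower and none was higher. *Bmp4* went from 0.631 to 0.0695 and from 0.628 to 0.143. Of 6 hedgehog genes, *Hhip*, which encodes a ligand-binding inhibitor, was lower (0.429 to 0.198 and 0.507 to 0.222), while the receptor and target gene *Ptch1* was 1.51-fold and 1.5-fold higher, short of the threshold. At shares of 0.812% higher and 1.67% lower over all genes, lists of this size would seldom hold a gene past 2-fold, so nothing is read from the 0 of 4 retinoic acid genes, 12 S phase genes and 12 mitosis genes that were.

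**Figure D4:**
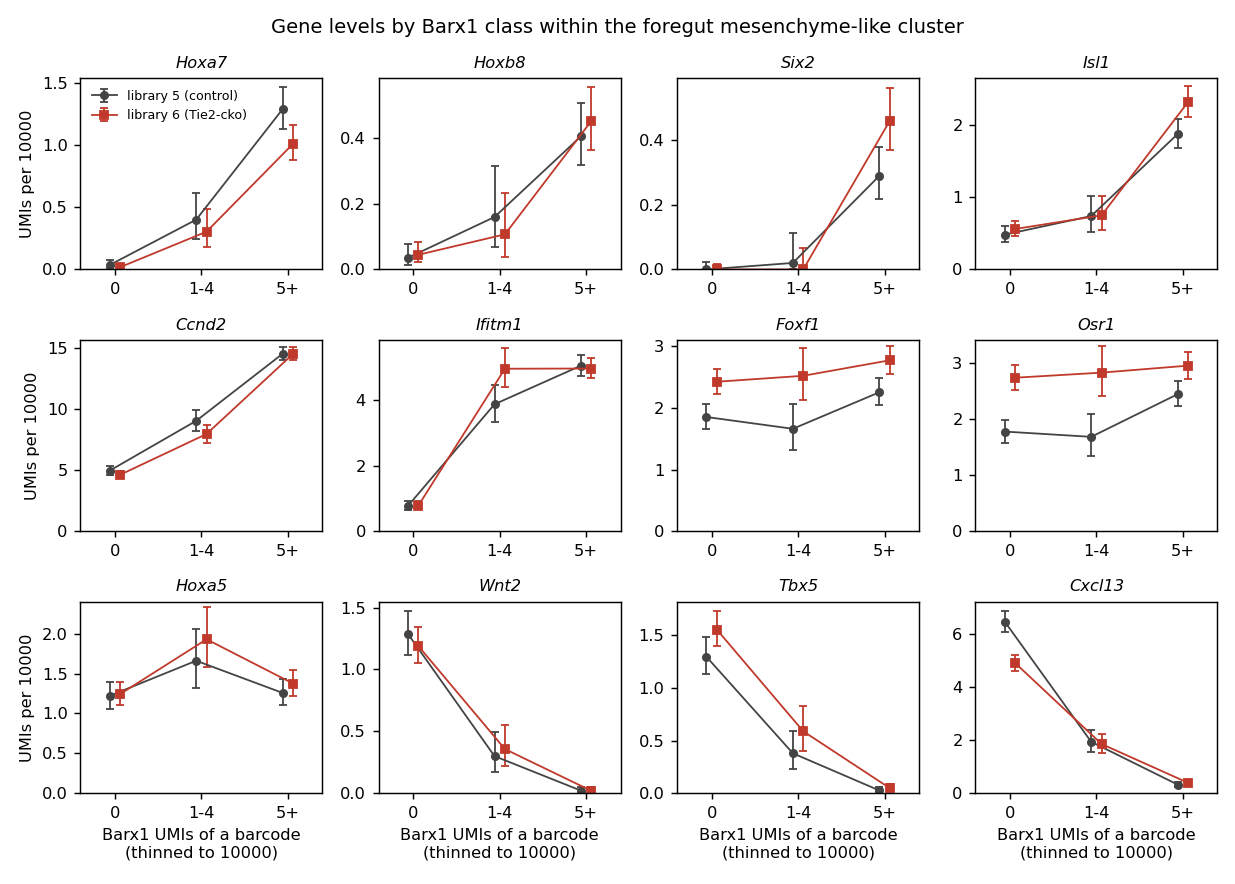
Mean UMIs per 10000 (vertical axes, linear from 0) of 12 genes in barcodes of the foregut mesenchyme-like cluster with 0, 1 to 4, or 5 or more *Barx1* UMIs (horizontal axes), in control library 5 and *Tie2-cko* library 6. Bars are exact 95% Poisson intervals. *Hoxa7*, *Hoxb8*, *Isl1* and *Ccnd2* were highest and *Wnt2*, *Tbx5* and *Cxcl13* lowest at 5 or more *Barx1* UMIs in both libraries.

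*Barx1*-high barcodes also differed among themselves in *Hoxa7*, which was seen in 53 of 187 in library 5 (28.3%) and 58 of 203 in library 6 (28.6%) after thinning. Barcodes with and without *Hoxa7* had close levels of *Barx1* (17.4 and 18.6 in library 5, 18.1 and 18.2 in library 6), *Foxf1* (2.19 and 2.28, 2.43 and 2.90) and *Hoxa5* (1.23 and 1.27, 1.38 and 1.37). Median depth before thinning was 17376 and 14968 UMIs in library 5 and 26728.5 and 24936 in library 6. Of 4750 genes that reached 0.3 UMIs, 24 (0.505%) were past 2-fold higher with *Hoxa7* in both libraries and 36 (0.758%) past 2-fold lower. This division was chosen after the values were seen and has no test.

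Of 12 other Hox genes that reached the level, 4 (*Hoxb8*, *Hoxb6*, *Hoxb1* and *Hoxc5*) were past 2-fold higher with *Hoxa7* and none past 2-fold lower, against 0.505% and 0.758% of all genes. *Hoxb8* was at 0.792 with and 0.254 without *Hoxa7* in library 5 and at 0.897 and 0.276 in library 6, *Hoxb6* at 0.755 and 0.187 and at 0.672 and 0.124, and *Hoxb1* at 0.943 and 0.194 and at 0.914 and 0.207. *Fgf9*, which encodes a growth factor ligand, was at 0.755 and 0.0597 and at 0.707 and 0.110, and *Pitx1*, a hindlimb and pituitary homeobox gene, at 0.811 and 0.366 and at 1.17 and 0.269. *Col14a1* and *Igfbp3*, which encode a fibril-associated collagen and an IGF-binding protein, had the largest ratios, 9.90-fold to 11.6-fold with 0.02 added.

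Barcodes without *Hoxa7* carried the *Isl1* and *Six2* of the *Barx1*-high class. *Isl1* was at 2.5 (2.24 to 2.78) without and 0.302 (0.173 to 0.490) with *Hoxa7* in library 5, and at 2.97 (2.70 to 3.27) and 0.690 (0.493 to 0.939) in library 6. *Six2* was at 0.381 and 0.0566 and at 0.614 and 0.0690, the lower values being 3 and 4 UMIs. *Gata6*, a zinc finger gene of splanchnic mesoderm, was at 0.619 and 0.0189 and at 0.841 and 0.121, and *Gata4* at 0.216 and 0 and at 0.448 and 0.0517. *Osr1*, 1 of the genes that chose the members, was 2.97-fold and 2.46-fold higher without *Hoxa7*. *Hoxa7* and *Isl1* were thus both higher in the *Barx1*-high than in the zero class, while within the high class *Isl1* was lower where *Hoxa7* was seen, in the control and in the *Tie2-cko* library.

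**Figure D5:**
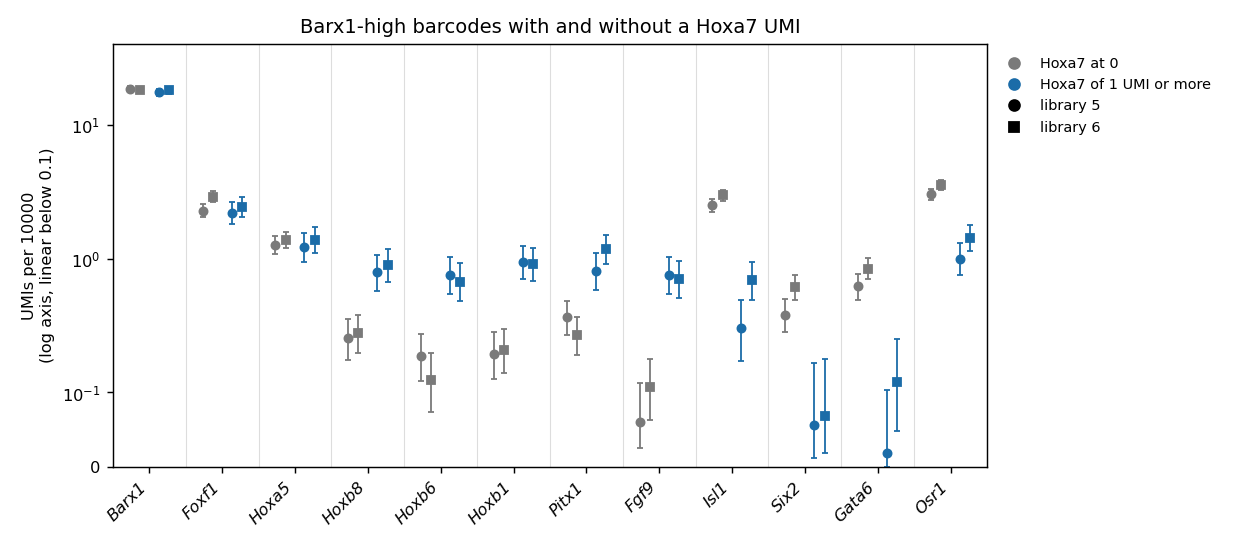
Mean UMIs per 10000 (vertical axis, logarithmic above 0.1 and linear below) of 12 genes in *Barx1*-high barcodes of the foregut mesenchyme-like cluster without a *Hoxa7* UMI (grey) and with at least 1 (blue), in libraries 5 (circles) and 6 (squares). Bars are exact 95% Poisson intervals. *Barx1*, *Foxf1* and *Hoxa5* were close, *Hoxb8* to *Fgf9* were higher with *Hoxa7*, and *Isl1* to *Osr1* were lower.

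Genotype was compared over all 4 libraries by summing the UMIs of members in each. By edgeR's quasi-likelihood test 0 of 10603 genes (0%) had a Benjamini-Hochberg adjusted p under 0.05, with 120 at an unadjusted p under 0.05. The count rested on the libraries and the filter, at 92 without library 5, 13 without library 6, 8 without library 7, 0 without library 8 and 44 with no filter on low counts. DESeq2 called 2, which were the globin genes *Hbb-bh1* and *Hba-a2*, both lower in *Tie2-cko*. Per 10000 summed UMIs, *Hbb-bh1* stood at 6.64 in library 5 and 3.17 in library 7 (controls), against 1.34 in library 6 and 0.839 in library 8, without overlap (log2 difference -2.26, DESeq2 adjusted p = 6.5e-06). *Hba-a2* was at 3.47 and 1.90 and at 1.05 and 0.657 (log2 difference -1.75, DESeq2 adjusted p = 0.00635). Both are red cell genes, and the part of free blood RNA in them was not tested. Each genotype had 1 library with members in the foregut mesenchyme-like cluster (225 in library 5, 231 in library 6) and 1 library with none, so the spread within a genotype in this test includes the make-up by cluster.

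Within that cluster only library 5 and library 6 could be set side by side, 1 for each genotype, so there is no test. Of 8865 genes with at least 50 summed UMIs, 59 (0.666%) were past 2-fold higher in the *Tie2-cko* library and 47 (0.53%) past 2-fold lower. The median gene was 0.11 higher on the log2 scale in library 6, and after centring on it the counts were 31 higher and 54 lower. These values are per 10000 UMIs summed over the members, not means over barcodes as above. *Hbb-y* led the lower genes in abundance, with 32.5 in library 5 (31.8 to 33.1) and 5.64 in library 6 (5.44 to 5.84), and *Hba-a1*, *Hbb-bs*, *Hbb-bt*, *Hbb-bh1*, *Hba-x* and *Hba-a2* were also among the 10 with the lowest ratio, next to *Mt1*, *Pdlim5* and *Pgam2*. Among the 10 genes with the highest ratio, *Asb4* was at 0.120 (0.0847 to 0.166) and 0.331 (0.285 to 0.383), and *Rdh10*, which encodes the enzyme that makes retinaldehyde from retinol, at 0.0455 (0.0249 to 0.0763) and 0.115 (0.0886 to 0.148). *Barx1* was 1.11-fold higher in library 5, *Foxf1* 1.22-fold and *Osr1* 1.24-fold higher in library 6, all short of 2-fold. With the globin genes left out, a setting chosen after the values were seen, 59 were higher and 40 lower.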

How the data were processed

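Libraries of 10x Genomics single-cell RNA were deposited by the authors as raw UMI counts per gene and barcode, with genes named by Ensembl identifier and symbol. Per the matrix headers the counts came from Cell Ranger 6.1.2, while the study's methods name another version, and the submitters' processing notes name mm10. Barcodes with at least 1500 genes and at most 10% mitochondrial UMIs were kept, and members were taken by the marker rule given in the results. Members, gene lists, Barx1 classes and tests were chosen with earlier results of these data known.

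Levels are means over barcodes of UMIs per 10000. Clusters were made with scanpy 1.11.5 from 2000 variable genes without the 12 rule and marker genes (30 components, 20 neighbours, Leiden resolution 0.8). Barcodes were thinned to 10000 UMIs, leaving out shallower ones, for shares and for the Barx1 and Hoxa7 classes (175 of 580 and 90 of 572 barcodes of the foregut mesenchyme-like cluster in libraries 5 and 6 were shallower). Ratios have 0.02 added to both levels, or 0.5 UMIs between libraries 6 and 5. Doublets were kept, and removing the highest Scrublet scores (0.8% per 1000 barcodes, 15 members) was an alternative. Of the members, 4 share their barcode sequence with a barcode of another library, and 0 are members in both.

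Genotype was tested with edgeR 4.0.16 (TMM, filterByExpr, quasi-likelihood F-test) and, as an alternative, DESeq2 1.42.0, in R 4.3.3. On simulated counts for this comparison with 10603 genes, 200 genes were changed by 2 on the log2 scale. The edgeR step recovered 94.5% of them at a dispersion of 0.05 and 90.0% at the common dispersion estimated from these libraries. Those shares hold for these dispersions only, and the changed genes were drawn from outside the lowest mean levels. All simulated libraries had the same expression profile before the change. The difference in make-up by cluster between the measured libraries was thus left out, and the shares do not cover it. In the measured libraries Hbb-bh1 and Hbb-y, with log2 differences of -2.26 and -2.27, were not called by edgeR. Intervals are exact (Clopper-Pearson for shares, Poisson for UMIs). Coordinates are of mm10 (GENCODE M21, 407 of 408 genes matched by identifier), and promoter sequences are from the RefSeq table of build GRCm38.p6, which is the same assembly. It has no entry for Foxf1 or Osr1.

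Genes were named if they were rule markers, reached 1 UMI per 10000 or were at 0 in a list, had 1 of the 15 largest ratios to a comparison group, or had 1 of the 10 largest ratios between genotypes. Genes named for the Barx1 and Hoxa7 classes were chosen after their values were seen.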

Additional observations from a re-analysis of the deposited data

How the results depend on the processing

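The number of members depended on the second marker, with 460 when *Osr1* alone was required and 375 when both were, against 759, and lay between 432 and 728 when a library was left out. The genotype difference in share was positive under the alternatives run on filters, markers, thinning, doublets and denominator, and ran from -0.915 to 5.40 percentage points when a library was left out, the negative value being without replicate 6. The count of genes called between genotypes was 44 with no filter on low counts and 2 with DESeq2, against 0, and 0 to 92 when a library was left out (92 without replicate 5, 13 without replicate 6, 8 without replicate 7, 0 without replicate 8). Each of those fits leaves 1 genotype with a single library, which is assumed to vary like the 2 of the other. The cause was not tested. Clustering at resolution 0.4 gave 1 cluster of 1879 barcodes with 620 members (81.7%), of which 42 came from library 8, so the absence of that library's members from the leading cluster depends on the resolution. At 1.2, or with the rule and marker genes kept, the leading cluster held 456 and 459 members and none from libraries 7 and 8. No paired analysis was possible because the genotypes share no replicate numbers and the labels do not say which libraries belong together.

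The alternatives on the *Barx1* and *Hoxa7* classes and on libraries 6 and 5 were chosen after seeing the data. Genes past 2-fold higher in the *Barx1*-high class were 19 at a required level of 0.5 UMIs, fewer genes reaching that level, and in 1 library alone 37 were higher and 91 lower in library 5, and 50 higher and 89 lower in library 6. For *Hoxa7*, 54 were higher and 62 lower in library 5 alone, and 52 higher and 112 lower in library 6 alone, against 24 and 36 in both, and from unthinned UMIs 19 of the 24 and 24 of the 36 were among those found. Between libraries 6 and 5, 299 genes were past 2-fold at 20 summed UMIs and 49 at 100, against 106. Depth limits genes near 0.02 UMIs per 10000, where a value rests on a few UMIs.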

Other observations

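Barcodes that carried *Barx1* with *Foxf1* or *Osr1* but were kept out by another limit of the rule numbered 236, 255, 20 and 44 in libraries 5, 6, 7 and 8. An *Epcam* UMI kept out 132, 184, 3 and 8 of them, and *Tnnt2* 107, 76, 15 and 35.

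*Xist*, the RNA of the inactive X chromosome, was seen in 1405 of the 9019 kept barcodes of control library 5 (15.6%), and in 0.179% of library 6, 0.0502% of library 7 and 0.1% of library 8. A UMI of a Y-linked gene (*Ddx3y*, *Eif2s3y*, *Kdm5d* or *Uty*) was seen in 60.5%, 78.9%, 69.7% and 69.9%. Kept barcodes with *Xist* and no Y-linked UMI numbered 1032, 1, 0 and 1 in libraries 5, 6, 7 and 8. Of all 311 members of library 5, 19 had an *Xist* UMI (6.11%). Of the 225 in the foregut mesenchyme-like cluster, 2 had an *Xist* UMI (0.889%) and 116 a Y-linked one (51.6%). The *Xist* barcodes of that library thus lay almost wholly outside these 225, while members in other clusters held most of the 19.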
